A study of Mus musculus with 20 samples.

Results

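The UDP-glucuronosyltransferases, glutathione S-transferases and sulfotransferases are the enzyme classes that attach glucuronic acid, glutathione or sulfate to hormones, bile pigments, drugs and toxins. Their genes were followed through growing colorectal liver metastases and in macrophages sorted from them. The members were all protein-coding genes whose symbols begin with Ugt1, Ugt2 or Ugt3, with Gst and a class letter, or with Sult and a number. There were 64 among the 54532 genes of the count tables, of which 21 were Ugt, 22 Gst and 21 Sult genes. Wild-type C57BL/6 mice had received 1000000 MC38 cells, a colon adenocarcinoma line of the same strain, through the spleen and portal vein. Tissue pieces held a low tumor content at day 9 (Lt, 2 libraries), a medium content at day 9 (Mt3, 2) or day 11 (Mt2 and Mt1, 2 each), or a high content at day 12 (Ht, 3). Liver of mice given normal saline, labelled day 0 (con, 2 libraries), and 1 piece of tumor-free liver taken away from the tumors at day 12 (L-con) were the controls. F4/80+ and CD11b+ cells (F4/80+TAM and CD11b+TAM, 3 libraries each) had been captured with antibody-coated microbeads from day 11 metastases of the Mt2 kind, so the sorted cells came from mice that carried tumors and no control sort stood beside them.

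The Ugt enzymes sit in the endoplasmic reticulum and use UDP-glucuronic acid. The Ugt1a genes share their last exons and differ by their first exon, each with a promoter of its own, whereas the Ugt2 and Ugt3 genes are separate. Gst enzymes join glutathione to electrophiles and are grouped into the cytosolic alpha, mu, pi, theta, omega and zeta classes and the kappa class of mitochondria and peroxisomes, and Sult enzymes transfer sulfate from the donor PAPS. All 3 classes are abundant in hepatocytes, and several Gst genes are also used by macrophages and tumor cells.

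Libraries held between 16032085 and 20548370 counts. The study states that Ht libraries 1 and 3 were made identical, so they were summed and Ht had 2 samples. Levels are counts in a library of 1000000 (CPM) after TMM scaling, on which a count of 0 in a tissue sample allowed up to 0.0559 to 0.266 CPM and in a sorted library 0.127 to 0.174 CPM. Pieces of tissue are mixtures, and fewer cells of a type and less RNA per cell cannot be told apart. Alb, the albumin gene and a defining marker of hepatocytes, stood at 129515 and 108806 CPM in con liver, 93640.2 in the L-con piece, 98827 and 49769.9 at the Lt stage, 81613 and 53761 at Mt3, 55078 and 11698 at Mt2, 58365 and 13312 at Mt1 and finally 1627 and 2498 at Ht. All 13 genes of a hepatocyte list were called lower from con to Ht (median log2 fold change -5.41), and 9 of 13 genes of a macrophage list were called higher (median 2.21). On a scale joined with tissue, the sorted cells carried the macrophage list at 19302 to 31920 summed CPM against 2135 and 2735 in Mt2 tissue, and the hepatocyte list at 91.4 to 423 against 122745 and 34166. The third CD11b+TAM library stood apart with 3604 CPM over 6 neutrophil markers, against 1190 and 1205 in the other CD11b+TAM libraries. All CD11b+TAM libraries lay above the 171, 258 and 479 CPM of F4/80+TAM for these markers. Tissue was labelled male, the sorted samples carry no sex label and the study's methods describe female mice. On the joined scale, Ddx3y (Y-linked) lay between 14.9 and 129 CPM in tissue and at 0 counts in every sorted library. Xist lay between 322 and 1035 CPM in the sorted libraries against at most 0.21 in tissue, so sex and sorting cannot be told apart when sorted cells are compared with tissue.

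The 64 genes together made up 1.05 ± 0.0188% of all counts in con (SD, n = 2) and 0.11 ± 0.034% in Ht (SD, n = 2). Their summed level was 15062 and 14942 CPM in con liver, 13149 in the L-con piece, 11400.2 and 7614 at the Lt stage, 9870.0 and 8484 at Mt3, 6886 and 2219.6 at Mt2, 4795 and 2244 at Mt1 and finally 535 and 849.8 at Ht. The Ht samples lay below every other sample, and the second libraries of Mt2 and Mt1 lay far below the first, as they did for Alb. Of the 64 genes, 9 had no count in any library (Ugt1a8, Ugt2a1, Ugt2a2, Sult1c1, Sult2a3, Sult2a4, Sult2a5, Sult2a6 and Sult3a2), and 48 passed the filter on low counts and were tested in tissue (17 Ugt, 21 Gst and 10 Sult genes). Sult2a1, Sult2a2 and Sult3a1, which are known as female-predominant genes of mouse liver, had 4, 2 and 9 counts over all tissue libraries.

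**Figure D1:**
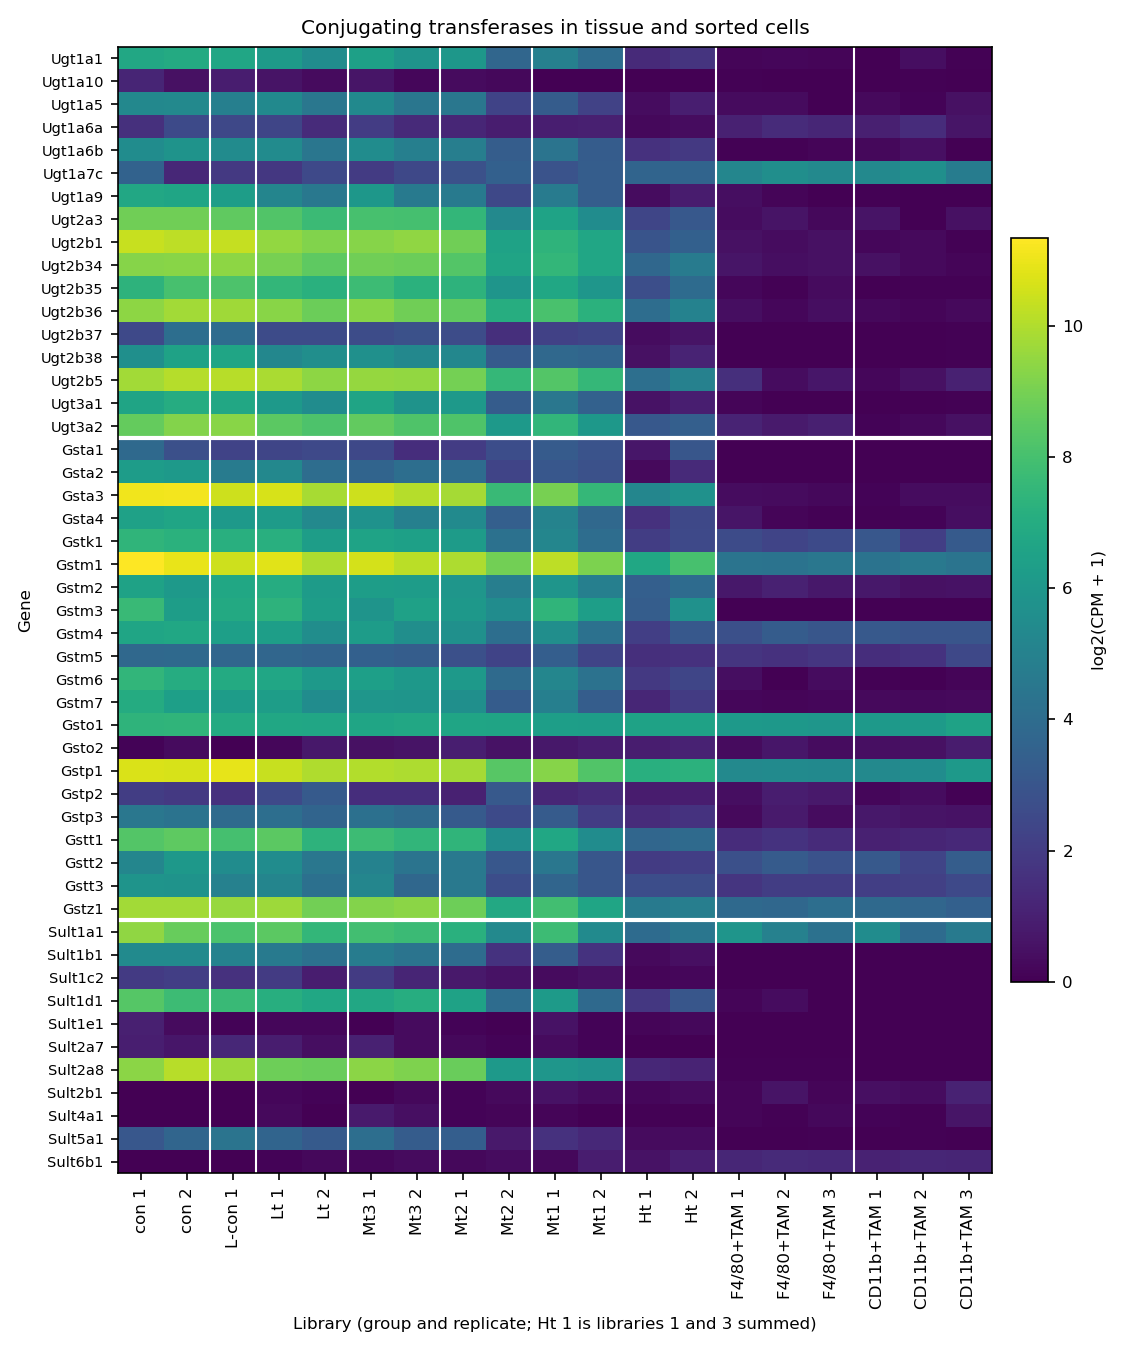
log2(CPM + 1) of the 49 members tested in tissue and sorted cells together (rows, grouped as Ugt, Gst and Sult) in every library (columns, grouped by tissue or sorted population). Most rows darken from con to Ht and again in the sorted cells, while Gsto1 keeps an even level across the libraries and Ugt1a7c is brightest in the sorted cells.

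Levels per kilobase of exon showed which enzymes dominated the normal liver. Gstp1, the pi-class enzyme, led with 2083 ± 40.6 CPM per kilobase in con (SD, n = 2), followed by the mu-class Gstm1 with 1483 ± 292, Ugt2b5 with 499 ± 76.0, the alpha-class Gsta3 with 483 ± 8.65 and Ugt2b1 with 472 ± 47.7. The values of the last 3 overlapped. The length of Gstp1 was taken as 757 bases from the count table, whereas its model in GENCODE M21 covers 1548 exon bases, so its rank depends on the gene model. Sult1a1, a phenol sulfotransferase, stood at 352 ± 126 CPM per kilobase and Sult2a8 at 256 ± 91.6, with overlapping con libraries, and Ugt1a1, which conjugates bilirubin, stood at 286 ± 19.6 over the 385 exon bases it does not share with another gene.

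From con to Ht, 40 of the 48 tested members were called lower and 2 higher, against 24.1% and 25.8% of all 17187 genes tested. A call required an adjusted p of at most 0.05 and at least a 2-fold change in edgeR's quasi-likelihood test. The median log2 fold change of the members was -4.93, beside 0.09 over all genes, and the Ht samples lay below both con libraries for 43 of the 48 and above both for 4, against 40.4% and 45.2% of all genes. By class, 16 of 17 Ugt genes (median -5.52), 17 of 21 Gst genes (median -3.65) and 7 of 10 Sult genes (median -5.07) were called lower. Scaling by total counts instead of TMM put the all-gene median at 1.27 in place of 0.09 and changed the share called lower and higher from 24.1% and 25.8% to 13.1% and 51.3%, while 39 members were then called lower and 3 higher.

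**Figure D2:**
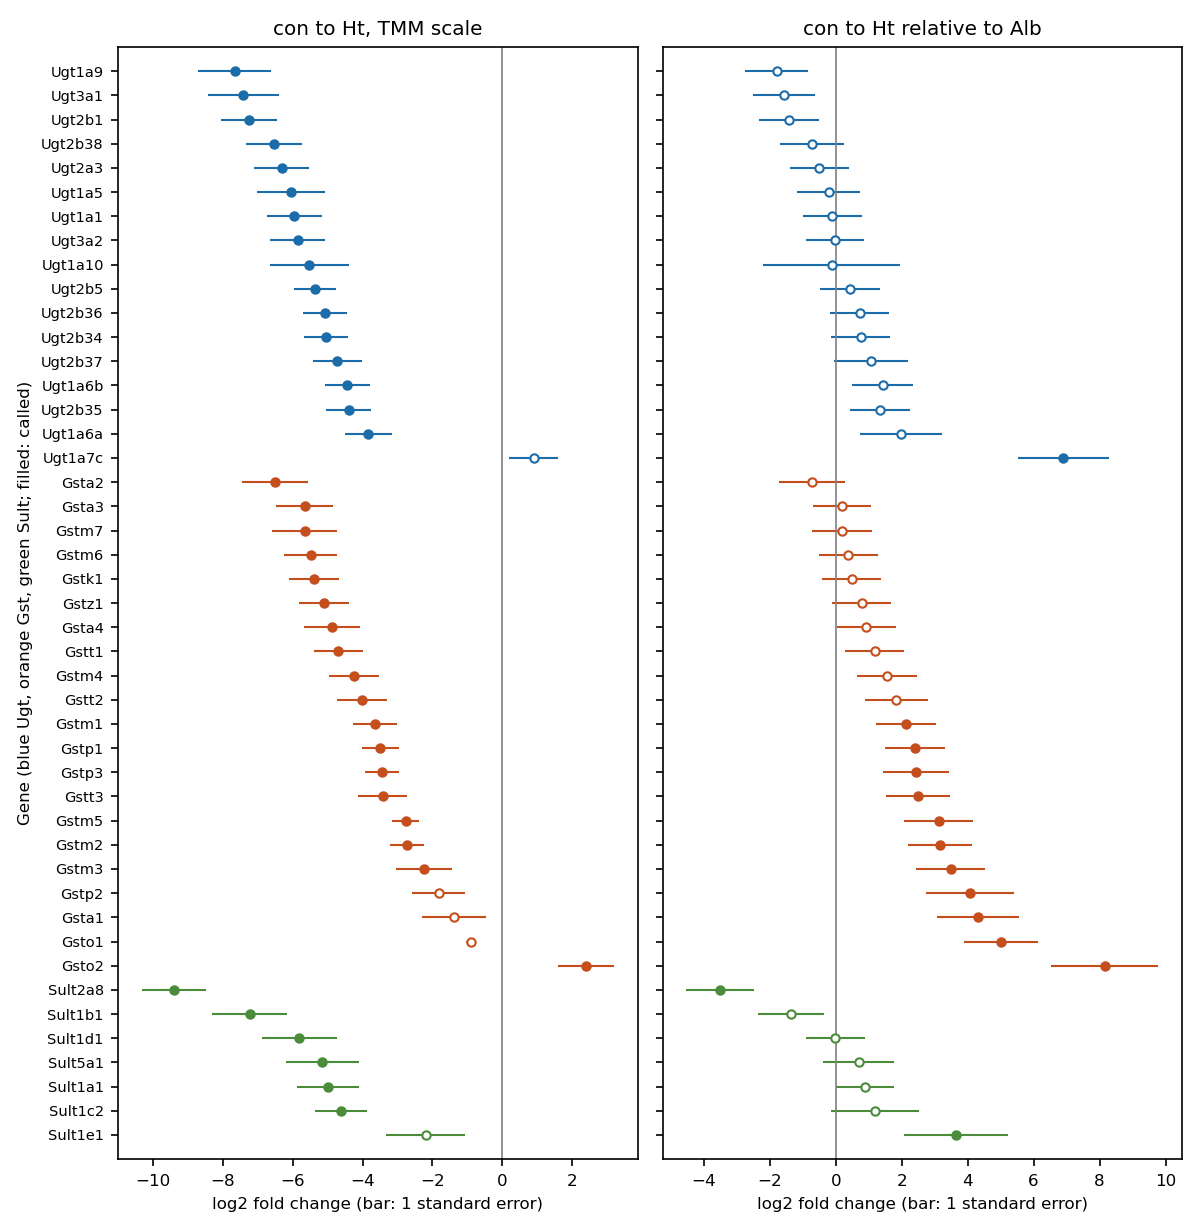
log2 fold change from con to Ht with 1 standard error for the tested members, on the TMM scale (left) and relative to Alb (right), filled where called. The 3 members with no count in con or in Ht (Sult6b1, Sult4a1 and Sult2a7) are left out. On the left nearly all points lie below 0, and on the right the Ugt points gather around 0 and most Gst points lie above it.

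Among the Ugt genes, the Ugt2b family carried the largest counts in normal liver. Ugt2b1 (chr5:86916638-86926530, GRCm38), a glucuronosyltransferase of steroids and drugs, stood at 1300.1 and 1127 CPM in con liver, 1212 in the L-con piece, 697 and 567 at the Lt stage, 582 and 665 at Mt3, 451 and 88.3 at Mt2, 155 and 96.3 at Mt1 and finally 6.32 and 9.54 at Ht. Ugt2b5 stood at 827 and 1027 CPM in con liver, 1069 in the L-con piece, 899 and 666 at the Lt stage, 717 and 680.5 at Mt3, 479 and 177 at Mt2, 298 and 175 at Mt1 and finally 15.6 and 29.4 at Ht. Both Ht samples lay far under every other library in both genes, and the 2 Lt libraries lay below both con libraries for Ugt2b1 but spanned part of the con range for Ugt2b5. The log2 fold change from con to Ht was -7.26 ± 0.80 (SE, adjusted p = 0.000152) for Ugt2b1 and -5.37 ± 0.59 (SE, adjusted p = 0.000153) for Ugt2b5. Ugt2b36 went from 656 and 838 CPM in con to 14.9 and 29.8 in Ht, and Ugt2b34 from 600.2 and 609 to 12.3 and 24.2, with log2 fold changes of -5.07 and -5.05. All 7 Ugt2b genes were called lower. Ugt3a2, which uses sugar donors other than UDP-glucuronic acid, fell from 387 and 579 CPM to 7.27 and 9.37 (-5.86 ± 0.78, SE, adjusted p = 0.000316). Exonic 50-base words shared with other genes make up 41.7% of Ugt2b5 and 37.4% of Ugt2b38, so reads of these genes may be divided or lost among close copies, whereas Ugt2b1 shares none.

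The makeup of the Ugt1a counts differed between normal liver, Ht tissue and macrophages. The Ugt1a genes lie one after another on chromosome 1 and end in the same exons, so a read can be assigned to one gene only over exon bases of its own. These were 385 of 2224 exon bases for Ugt1a1 (chr1:88211959-88218997), 879 of 2190 for Ugt1a9 and 1915 of 4219 for Ugt1a7c (chr1:88095062-88220002). The Ugt1a7c model ends past the 88218997 of Ugt1a1 and Ugt1a9, so its own bases may include some after the shared exons. Reads there could come from another Ugt1a transcript with a longer 3′ end, and their part in the Ugt1a7c counts was not tested. The bases of each gene are the same in every library, so shares of Ugt1a counts can be compared between libraries within this limit, although not between genes. The 250 bases before the RefSeq start (GRCm38.p6, plus strand) of the 2 genes that led in normal liver and of the 1 that led in macrophages are printed 5′ to 3′, with capitals for matches to the HNF1 site core GTTAAT, the HNF4 site core CAAAGT or the antioxidant response element core TGACNNNGC on either strand.
Ugt1a1 chr1:88211709-88211958: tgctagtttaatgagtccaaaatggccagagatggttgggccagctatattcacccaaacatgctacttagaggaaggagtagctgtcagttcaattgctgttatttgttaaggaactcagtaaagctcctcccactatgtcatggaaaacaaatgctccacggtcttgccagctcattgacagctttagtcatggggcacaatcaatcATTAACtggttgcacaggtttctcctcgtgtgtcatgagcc
Ugt1a9 chr1:88070529-88070778: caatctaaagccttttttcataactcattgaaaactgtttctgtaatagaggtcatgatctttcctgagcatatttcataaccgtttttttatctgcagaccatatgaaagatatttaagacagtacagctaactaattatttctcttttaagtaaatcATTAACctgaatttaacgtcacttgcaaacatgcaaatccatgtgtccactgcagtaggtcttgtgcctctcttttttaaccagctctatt
Ugt1a7c chr1:88094751-88095000: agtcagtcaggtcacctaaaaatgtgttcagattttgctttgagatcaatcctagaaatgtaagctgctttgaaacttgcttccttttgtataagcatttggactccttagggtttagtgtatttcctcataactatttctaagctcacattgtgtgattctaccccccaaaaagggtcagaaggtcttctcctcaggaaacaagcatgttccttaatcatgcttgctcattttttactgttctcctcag
The windows of Ugt1a1 and Ugt1a9 each held 1 match to GTTAAT, read as ATTAAC on the printed strand, and that of Ugt1a7c held none of the 3 motifs. The other Ugt1a genes did not follow this split, and 4 of 8 Ugt1a windows held GTTAAT. Ugt1a6a held it, with 1.07% of Ugt1a counts in con and 3.13% in F4/80+TAM. Ugt1a5 did not, with 12.1% in con and 0.393% in F4/80+TAM. Over all 32851 promoter windows of this length, 6.43% held GTTAAT, against 6 of 19 Ugt windows, 1 of 28 Gst windows and 7 of 20 Sult windows. Of the 7 Ugt2b windows 0 held it. CAAAGT was held by 12.6% of all windows, 1 of 19 Ugt windows, 6 of 28 Gst windows and 3 of 20 Sult windows. None of the 19 Ugt windows held TGACNNNGC, against 10.2% of all windows and 3 of 28 Gst windows. A match describes these letters only.

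Ugt1a1 stood at 105 and 115 CPM in con liver, 97.5 in the L-con piece, 68.6 and 42.7 at the Lt stage, 81.3 and 54.5 at Mt3, 60.4 and 12 at Mt2, 28.3 and 14.1 at Mt1 and finally 1.45 and 2.12 at Ht. Ugt1a9, which glucuronidates phenols, stood at 107 and 95.2 CPM in con liver, 74.5 in the L-con piece, 33.1 and 21.7 at the Lt stage, 60.1 and 23.6 at Mt3, 23.3 and 4.32 at Mt2, 24 and 8.75 at Mt1 and finally 0.298 and 0.766 at Ht. For both genes Ht was the lowest group without overlap, and the log2 fold change from con to Ht was -5.96 ± 0.79 (SE, adjusted p = 0.000299) for Ugt1a1 and -7.66 ± 1.04 (SE, adjusted p = 0.000344) for Ugt1a9. In contrast, Ugt1a7c stood at 10.4 and 1.32 CPM in con liver, 2.55 in the L-con piece, 2.44 and 4.53 at the Lt stage, 2.74 and 4.32 at Mt3, 5.78 and 9.69 at Mt2, 6.14 and 8.54 at Mt1 and finally 10.9 and 10.9 at Ht. The con libraries of Ugt1a7c differed widely, the first reaching nearly the Ht level, and the change from con to Ht of 0.90 ± 0.71 (SE, adjusted p = 0.285) was not called. It was called higher without the first con library (3.03, adjusted p = 0.00394), with total-count scaling (2.11, adjusted p = 0.0344) and without the filter on low counts (1.03, adjusted p = 0.0112). Ugt1a7c was the 1 tested Ugt gene not called lower.

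As a share of all Ugt1a counts, Ugt1a7c made up 1.91 ± 2.09% in con (SD, n = 2), 1.03% in L-con, 2.67 ± 1.96% at the Lt stage, 2.24 ± 1.48% at Mt3, 14.4 ± 14.4% at Mt2, 13.2 ± 8.63% at Mt1 and finally 67.1 ± 7.23% at Ht. In the sorted cells its share was 95.5 ± 0.541% for F4/80+TAM (SD, n = 3) and 95.8 ± 0.852% for CD11b+TAM (SD, n = 3). Ugt1a1 went from 35.8 ± 2.24% in con to 10.9 ± 1.77% in Ht and 0.270 ± 0.0293% in F4/80+TAM, and Ugt1a9 from 32.8 ± 2.81% to 3.17 ± 1.70% and 0.384 ± 0.502%. The shares rest on 470 to 3730 Ugt1a counts per sample, and the Mt2 and Mt1 libraries that were low in Alb were those with the larger Ugt1a7c share. The contribution of cell makeup to these shares was not tested.

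**Figure D3:**
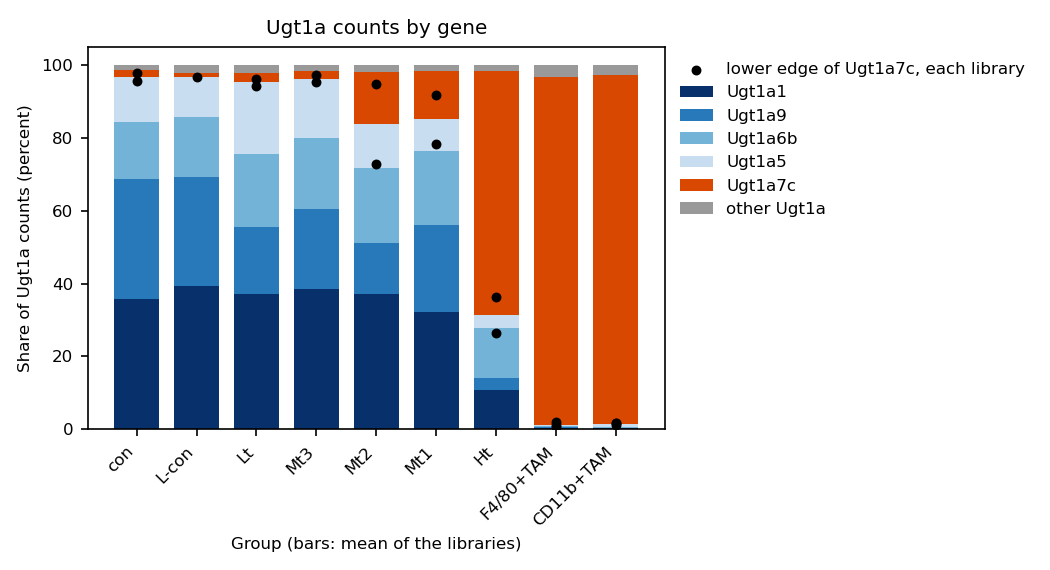
Share of Ugt1a counts by gene (percent, bars are means of the libraries in each group) with black points for the lower edge of the Ugt1a7c part in each library. Ugt1a1, Ugt1a9, Ugt1a6b and Ugt1a5 fill most of each bar from con to Mt1, where Ugt1a7c takes 14.4% at Mt2 and 13.2% at Mt1, whereas Ugt1a7c fills 67.1% of the Ht bar and over 95% of the macrophage bars.

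Among the Gst genes, the tested changes ran from strong falls to 1 rise. Gstm1 stood at 2489 and 1881 CPM in con liver, 1368 in the L-con piece, 1748 and 949 at the Lt stage, 1459.7 and 1095 at Mt3, 935 and 466 at Mt2, 1128 and 509 at Mt1 and finally 102 and 246 at Ht. Gsta3 stood at 2071 and 2124 CPM in con liver, 1352 in the L-con piece, 1516 and 884 at the Lt stage, 1367 and 1033 at Mt3, 851 and 197 at Mt2, 492 and 176 at Mt1 and finally 33.9 and 49 at Ht. Gstp1 (chr19:4035407-4037921) stood at 1598 and 1555 CPM in con liver, 1839.6 in the L-con piece, 1271 and 994 at the Lt stage, 988 and 937 at Mt3, 840.3 and 314 at Mt2, 597 and 291 at Mt1 and finally 133 and 147 at Ht. In all 3 genes the Ht samples lay below every other library. The log2 fold changes from con to Ht were -5.66 ± 0.82 (SE, adjusted p = 0.000436) for Gsta3, -3.65 ± 0.64 (SE, adjusted p = 0.00101) for Gstm1 and -3.49 ± 0.52 (SE, adjusted p = 0.000495) for Gstp1. Gstz1, the zeta-class enzyme of tyrosine breakdown, went from 825 and 843 CPM in con to 22.2 and 26.5 in Ht (-5.10 ± 0.72, SE, adjusted p = 0.000385), and the theta-class Gstt1 from 304 and 352 to 11.7 and 13.6 (-4.69 ± 0.71, SE, adjusted p = 0.000515). Gstp1 shares 33.7% of its exonic 50-base words with other genes and Gstm1 18.9%, so their counts carry that uncertainty. All 7 Gstm, Gstk1 and Gstz1, 3 of 4 Gsta, 3 of 3 tested Gstt and 2 of 3 Gstp genes were called lower.

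The omega class departed from this pattern. Gsto1 (chr19:47854970-47864790), a thioltransferase that also reduces dehydroascorbate, stood at 158 and 163 CPM in con liver, 114 in the L-con piece, 101 and 99.2 at the Lt stage, 97 and 105 at Mt3, 96.8 and 93.7 at Mt2, 77.4 and 73.9 at Mt1 and finally 87 and 85.8 at Ht. The con libraries lay above all others, and Ht lay within the range of the other stages. The change from con to Ht was -0.89 ± 0.14 (SE, adjusted p = 0.000575), less than the 2-fold required for a call, and it had a value of -0.68 ± 0.14 (SE, adjusted p = 0.0115) already from con to Lt. From Mt to Ht it was -0.06 ± 0.11 (SE, adjusted p = 0.724). With total-count scaling the con to Ht value turned to 0.30 (adjusted p = 0.275). Gsto2 was read at 4 counts in con and 74 in Ht, a ratio of 5.25 with an exact 95% counting interval of 1.97 to 19.8, and it was one of the 2 members called higher (log2 fold change 2.40 ± 0.80, SE, adjusted p = 0.0246). Leaving out the first con library, or either Ht sample, ended that call at log2 fold changes of 1.88 to 2.57 (adjusted p = 0.051 to 0.132).

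Gstm3 and Gsta1, chosen after their values were seen, separated the 2 Ht samples. Gstm3 stood at 199 and 75 CPM in con and 8.61 and 49.4 in Ht, and Gsta1 at 13.1 and 5.54 and 0.559 and 6.72. The second Ht sample was the high one in both. Gstm3 was called lower from con to Ht (-2.25 ± 0.80, SE, adjusted p = 0.0332), a call that was lost with a replicate block (-2.11, adjusted p = 0.0555), with only the groups compared (-2.21, adjusted p = 0.0573), with total-count scaling (-1.06, adjusted p = 0.183), without the first con library (-1.38, adjusted p = 0.212) or without the first Ht sample (-1.47, adjusted p = 0.124). Gsta1 was not called (-1.38 ± 0.91, SE, adjusted p = 0.21), but it was called lower without the second Ht sample (-4.04, adjusted p = 0.00561) and without the filter (-1.27, adjusted p = 0.00281). Of the exonic 50-base words of Gsta1, 90.5% occur in other genes, and of Gstm3, 28.8%.

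The Sult genes held the deepest fall and 1 of the 2 members called higher. Sult2a8 (chr7:14410686-14446769), which sulfates bile acids, stood at 627 and 1053 CPM in con liver, 769.6 in the L-con piece, 436 and 412 at the Lt stage, 625 and 533 at Mt3, 404 and 65.6 at Mt2, 58.4 and 50.8 at Mt1 and finally 1.32 and 1.15 at Ht. Its Mt1 libraries and the second Mt2 library were already far below the con libraries, and Ht lay lowest of all. The change from con to Ht was -9.40 ± 0.92 (SE, adjusted p = 0.000109), the most negative of the tested members. Sult1a1 stood at 665 and 396 CPM in con liver, 265 in the L-con piece, 342 and 174 at the Lt stage, 229 and 203 at Mt3, 137 and 38.1 at Mt2, 208 and 39.6 at Mt1 and finally 13.7 and 19.7 at Ht. Sult1d1, a sulfotransferase of catecholamines and other phenols, stood at 312 and 209.7 CPM in con liver, 193 in the L-con piece, 130.0 and 102 at the Lt stage, 105 and 127 at Mt3, 86.4 and 14.2 at Mt2, 68.3 and 12.9 at Mt1 and finally 2.44 and 6.93 at Ht. In both genes the second Mt2 and Mt1 libraries lay well below the first, and Ht was lowest. They changed by -4.99 ± 0.90 (SE, adjusted p = 0.0012) and -5.81 ± 1.08 (SE, adjusted p = 0.00139). Sult1b1, which acts on thyroid hormone, went from 41.1 and 39.9 CPM to 0.205 and 0.348 (-7.24 ± 1.07, SE, adjusted p = 0.000467), and Sult5a1 from 7.26 and 11.4 to 0.242 and 0.279 (-5.15 ± 1.03, SE, adjusted p = 0.0021). Sult6b1 had no count in con or L-con and stood at 0.0717 and 0.194 CPM at the Lt stage, 0.134 and 0.251 at Mt3, 0.186 and 0.283 at Mt2, 0.174 and 0.833 at Mt1 and 0.429 and 0.87 in Ht. These were 1 and 3 counts at Lt and 2 and 4 at Mt3, near the floor of 3 counts. Mt2 held 3 and 7 counts, Mt1 3 and 20 and Ht 23 and 25. Sult6b1 was called higher in Ht, where its mean was at least 2.53-fold higher than the level of 3 counts per library in con. Part of its exons overlaps Gm26637.

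Between neighboring stages, the fit of all tissue groups with the filter on low counts called members at the step from Mt to Ht. From con to Lt no member was called, against 0.256% of all genes called lower and 12.4% called higher, and 2 of 48 had an unadjusted p under 0.05, against 28.6% of all genes. DESeq2 also called 0 members, against 14.7% of all genes in either direction. Without the filter 9 of 55 members were called lower (1.28% of all genes), and with con and Lt alone in the fit 7 of 43 (2.1%). The median log2 fold change of the members was -0.68, and 42 of 48 were negative. From Lt to Mt, the mean of the 3 medium groups, no member was called by edgeR or DESeq2, against 0% and 1.4% of all genes called in either direction, and the members' median was -0.91. An unadjusted p under 0.05 was reached by 14 of 48 members in edgeR and 16 in DESeq2, against 19.1% and 22.2% of all genes. Without the first Mt2 library 17 of 48 members were called lower (3.53% of all genes), and without the filter 12 of 55 (1.87%). From Mt to Ht, 37 members were called lower and 0 higher, against 13.4% and 1.5% of all genes, with a median of -3.30. Among these, Sult2a8 changed by -7.29 ± 0.82 (SE, adjusted p = 0.00861), Ugt2b1 by -5.12 ± 0.69 (SE, adjusted p = 0.00861) and Gstm1 by -2.37 ± 0.55 (SE, adjusted p = 0.0184). Leaving out either Ht sample left a single Ht sample and no member called lower (0% of all genes), at changes of -7.40 and -7.19 for Sult2a8, -4.85 and -5.45 for Ugt2b1 and -1.87 and -3.14 for Gstm1.

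Set against Alb, the classes came apart. The summed Ugt level ran from 81.9 to 5414 CPM over the 13 tissue samples, a 66.1-fold range, but from 23.4 to 60.1 counts per 1000 Alb counts, a 2.57-fold range. It was 43.5 ± 8.81 per 1000 Alb counts in con (SD, n = 2) and 53.9 ± 5.04 in Ht (SD, n = 2). The summed Sult level was 14.3 ± 2.09 in con and 11.8 ± 0.315 in Ht. For Ugt both Ht values lay above both con values and for Sult below them, in each case by less than the range over the other tissue stages. The lower Ht sum of Ugt (50.4) exceeded the higher con sum (49.7) by less than the 6.72 that Ugt1a7c gave to that Ht sum. This order of the Ugt sum also depended on the reference. Per 1000 counts of the summed hepatocyte list, a choice made after the sums relative to Alb were seen, the Ugt sum was 21.9 and 29.6 in con and 18.8 and 23.2 in Ht, so the mean was lower in Ht and the values overlapped. On that scale the Sult sum remained lower in both Ht samples (4.57 ± 0.382 against 8.46 ± 1.31, SD, n = 2 each) and the Gst sum higher (104 ± 7.04 against 40.9 ± 2.69). The summed Gst level was 69.1 ± 3.98 per 1000 Alb counts in con, 74.2 ± 9.93 at Lt, 74.1 ± 13.1 at Mt3, 94 ± 35.7 at Mt2, 78.8 ± 36.7 at Mt1 and 269 ± 2.8 in Ht, and both Ht samples lay above all others. With Alb counts as the library size, 15 members were called higher and 1 lower from con to Ht, against 91% and 0.186% of all genes. The median over all genes was 5.99 on this scale, so the members as a whole (median 0.91) stayed closer to Alb than the typical gene did. Members called relative to Alb appeared at the last step: none of 48 was called from con to Lt (0.00582% of all genes lower, 4.48% higher) or from Lt to Mt (0% and 0%), with 0 at an unadjusted p under 0.05 in edgeR (16.6% and 6.41% of all genes), and 15 were called higher and 1 lower from Mt to Ht (90.8% and 0.151%). From con to Ht, by class, the medians were -0.02 for Ugt, 2.14 for Gst and 0.80 for Sult, with 1 of 17, 11 of 21 and 3 of 10 members called higher.

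**Figure D4:**
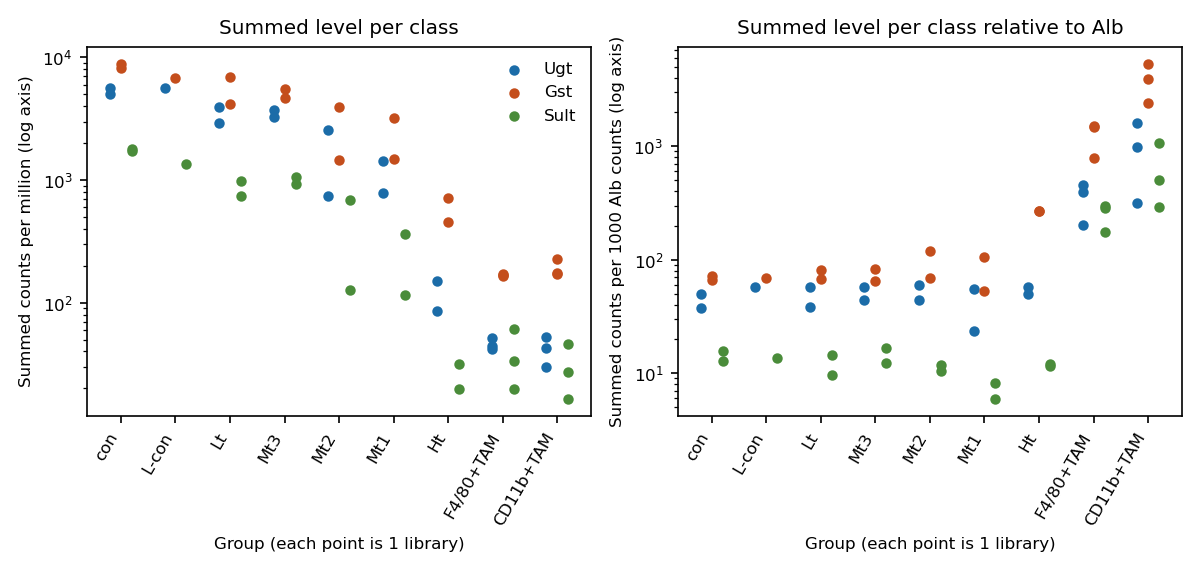
Summed level of the Ugt, Gst and Sult genes in each library as CPM on the scale joined with the sorted cells (left) and per 1000 Alb counts (right), both on log axes, 1 point per library. The left panel falls from con to Ht in all classes, while on the right the tissue points span 2.57-fold for Ugt and 2.79-fold for Sult, with the lowest value of each at Mt1, and the Gst points rise to between 267 and 271 in Ht.

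Individual members spread widely around Alb. Per 1000 Alb counts, Ugt2b1 stood at 10 and 10.4 in con and 3.88 and 3.82 in Ht, and Ugt2b5 at 6.39 and 9.44 and 9.61 and 11.8. Their changes relative to Alb were -1.40 ± 0.91 (SE, adjusted p = 0.142) and 0.43 ± 0.90 (SE, adjusted p = 0.645), neither of them called. With the summed hepatocyte list as reference, Ugt2b1 was called lower (-2.01, adjusted p = 0.0125) and Ugt2b5 turned to -0.17 (adjusted p = 0.815). Sult2a8 went from 4.84 and 9.68 to 0.814 and 0.46 and was the 1 member called lower (-3.51 ± 1.02, SE, adjusted p = 0.00186). Ugt1a9 had -1.80 ± 0.96 (SE, adjusted p = 0.0765) and was not called, but was called lower with a replicate block (-1.81, adjusted p = 0.0447), with Ht as 3 libraries (-1.83, adjusted p = 0.0364) and with the hepatocyte list (-2.39, adjusted p = 0.00741). Gsta3 had 16 and 19.5 in con and 20.8 and 19.6 in Ht (0.19 ± 0.87, SE, adjusted p = 0.838). Gstm1 rose from 19.2 and 17.3 to 62.8 and 98.5 (2.14 ± 0.91, SE, adjusted p = 0.0272) and Gstp1 from 12.3 and 14.3 to 82.1 and 58.9 (2.40 ± 0.92, SE, adjusted p = 0.0152). Gsto1 rose from 1.22 and 1.5 to 53.5 and 34.4 (5.02 ± 1.12, SE, adjusted p = 0.000133) and Ugt1a7c from 0.080 and 0.0122 to 6.72 and 4.35 (6.90 ± 1.38, SE, adjusted p = 4.07e-05). Of the 15 members called higher relative to Alb, 9 also passed the count filter in sorted macrophages, as did 9 of the 32 members not called, while Gsta1, Gstm3 and Sult1e1 of the 15 had no count in any sorted library. The number called higher was 7 without the second con library (86.9% of all genes) and 9 without the first (85.3%). The call of Gstm1 was lost without either con library or the second Ht sample (1.78 to 2.22, adjusted p = 0.134 to 0.159), and that of Gstp1 without either con library or the first Ht sample (2.14 to 2.51, adjusted p = 0.0598 to 0.125). Without the second Ht sample the calls of Gsta1 (2.17, adjusted p = 0.134) and Gstm3 (2.25, adjusted p = 0.0799) were lost, and that of Gstm3 also without the second con library (3.02, adjusted p = 0.0577).

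In the sorted macrophages, the 64 genes made up 0.0282 ± 0.00163% of counts in the F4/80+TAM libraries (SD, n = 3) and 0.0284 ± 0.00186% in those of CD11b+TAM (SD, n = 3). No count was found for 19 members in any sorted library, 18 passed the filter within the sorted cells, and 6 reached a mean of 10 CPM or more in either population: Gsto1, Gstp1, Ugt1a7c, Sult1a1, Gstm1 and Gstz1. Levels in this paragraph, and in those that compare the sorted cells with each other and with Mt2 tissue, are on a scale joined with the tissue libraries. On it the tissue values differ slightly from those above. Gsto1 stood at 67.8, 64.1 and 61.2 CPM among F4/80+TAM, 67.8, 70.7 and 91 in CD11b+TAM and 101 and 98.2 in Mt2 tissue. Gstp1 stood at 38.8, 41.4 and 40.8 CPM, 39.5, 44.8 and 67.4 and 881 and 329 in the same order. Gsto1 was thus near its tissue level and the leading member of both populations by CPM, and Gstp1 lay well below tissue. Ugt1a7c stood at 35.3, 47.2 and 39.5 CPM among F4/80+TAM, 39.9, 48.3 and 26.2 in CD11b+TAM and 6.05 and 10.2 in Mt2 tissue, above tissue in every sorted library. Sult1a1 varied within the populations, with 58.7, 31 and 18 CPM among F4/80+TAM and 44.3, 14.7 and 23.9 in CD11b+TAM, against 144 and 39.9 in Mt2 tissue. Gstm1 was even, with 19.4, 19.2 and 21.6 CPM and 18.8, 22.8 and 19.6, against 979 and 489 in tissue, and Gstz1 stood at 13.7, 12.7 and 16.1, 13.8, 12.2 and 9.98 and 456 and 114.

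**Figure D5:**
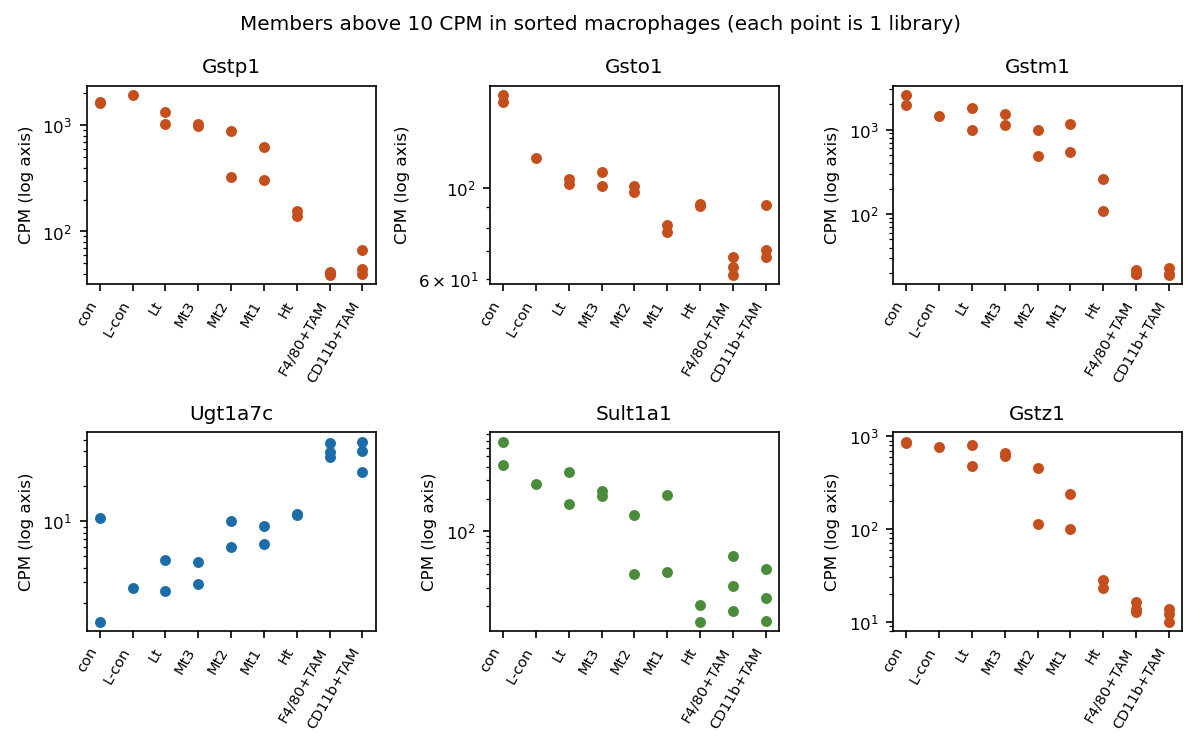
CPM (log axis) of the 6 members with a mean of at least 10 CPM in a sorted population, 1 point per library, in the tissue groups and both sorted populations. Ugt1a7c is highest in the sorted cells, Gsto1 spans less than the other 5, and Gstp1, Gstm1 and Gstz1 step down from con through Ht to the macrophages.

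None of the 18 tested members was called between them by edgeR or by DESeq2, against 0.0701% of all 14263 genes called lower and 0.00701% higher in F4/80+TAM by edgeR and 2.1% in either direction by DESeq2. In edgeR 1 of the 18 had an unadjusted p under 0.05, against 10.5% of all genes. That 1 was Ugt3a2, at 1.21, 0.786 and 0.987 CPM among F4/80+TAM and 0.0949, 0.169 and 0.406 in CD11b+TAM (2.13 ± 0.56, SE, adjusted p = 0.25). Alb was read at 4156, 2299 and 2282 counts in the F4/80+TAM libraries and 921, 771 and 1610 in the CD11b+TAM libraries, and whether RNA from hepatocytes gave the Ugt3a2 difference was not tested. For the abundant members the log2 difference of F4/80+TAM from CD11b+TAM was -0.30 ± 0.16 (SE, adjusted p = 0.497) for Gsto1, -0.38 ± 0.21 (SE, adjusted p = 0.507) for Gstp1 and 0.04 ± 0.23 (SE, adjusted p = 0.944) for Ugt1a7c.

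Against Mt2 tissue, 39 of 49 tested members were called lower and 2 higher in F4/80+TAM, where 25.2% and 17.2% of all 18407 genes were, and 39 and 2 in CD11b+TAM, where 26.3% and 17.6% were. The 2 comparisons share the Mt2 libraries. The 2 members called higher were Ugt1a7c, by 2.32 ± 0.56 (SE, adjusted p = 0.00276) in F4/80+TAM and 2.23 ± 0.55 (SE, adjusted p = 0.00338) in CD11b+TAM, and Sult6b1, by 2.50 ± 0.66 (SE, adjusted p = 0.0056) and 2.26 ± 0.66 (SE, adjusted p = 0.00987). Sult6b1 stood at 1.31, 1.57 and 1.48 CPM among F4/80+TAM and 1.09, 1.31 and 1.28 in CD11b+TAM against 0.195 and 0.296 in Mt2 tissue. Without the first Mt2 library its CD11b+TAM call was lost (2.03, adjusted p = 0.0678). Gsto1 differed by -0.63 ± 0.15 (SE, adjusted p = 0.00262) and -0.38 ± 0.15 (SE, adjusted p = 0.0427), under the 2-fold required for a call. Gstp1 differed by -3.91 ± 0.39 (SE, adjusted p = 1.57e-06) and -3.58 ± 0.39 (SE, adjusted p = 2.63e-06), and Gstm1 by -5.19 ± 0.47 (SE, adjusted p = 6.2e-07) and -5.17 ± 0.47 (SE, adjusted p = 5.1e-07). Gstm3 had no count in either population, at least 367-fold lower in F4/80+TAM and at least 370.1-fold lower in CD11b+TAM than its 54.7 CPM in Mt2 tissue. Sult2a8 had no count in CD11b+TAM, at least 1664-fold lower than in tissue. With such members set to their bound, F4/80+TAM had a median log2 fold change of -5.83 and CD11b+TAM one of -5.86. Relative to Alb, 5 members were called lower and 19 higher in F4/80+TAM (0.744% and 90.5% of all genes), and 4 lower and 23 higher in CD11b+TAM (0.473% and 91.5%), with Ugt medians of -0.37 and -0.26 and Gst medians of 3.63 and 3.97, beside 7.14 and 8.67 over all genes.

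Genes that supply, regulate and follow conjugation were read from lists, against the 24.1% of all genes called lower and 25.8% called higher from con to Ht. Of 13 genes for cofactor supply, 8 were called lower and 1 higher from con to Ht (median log2 fold change -1.82). Ugp2 and Ugdh, which make UDP-glucuronic acid, changed by -2.84 and -1.69, Gclc and Gclm, the subunits that limit glutathione synthesis, by -3.18 and -2.61, and glutathione reductase Gsr had 0.41 ± 0.17 (SE, adjusted p = 0.0614). The 2 PAPS synthases parted, with -5.62 for Papss2 and 3.02 for Papss1, the 1 called higher. Among 12 other conjugating enzymes 9 were called lower and 2 higher (Mgst2 and the macrophage-expressed prostaglandin D synthase Hpgds, 3.57), and microsomal Mgst1 changed by -5.16, Baat by -5.59, Nnmt by -3.73 and Glyat by -4.97. Of 13 regulators 10 were called lower and 0 higher (median -4.39), with -5.44 for Hnf4a, -4.17 for Cebpa, -5.51 for Ppara and -3.0 for Rxra, while Nfe2l2, which encodes NRF2, had 0.29 ± 0.16 (SE, adjusted p = 0.137). Of 9 NRF2 targets 3 were called lower and 3 higher (median 0.29), shares near those of all genes, and Gclc and Gclm were 2 of the 3 lower ones. Osgin1 had -1.70. The cystine transporter gene Slc7a11 had 2 counts over both con libraries and 234 over the Ht samples, a ratio of 33.2 with a 95% counting interval from 9.09 to 276. Values were -0.94 ± 0.23 (SE, adjusted p = 0.00626) for Txnrd1 and 0.30 ± 0.21 (SE, adjusted p = 0.247) for Srxn1. Of 12 tested genes for export and deconjugation 6 were called lower and 4 higher (median -0.63). Abcc2, the canalicular exporter of conjugates, changed by -5.01, Slc10a1, a bile acid uptake carrier, by -7.62, and the exporter genes Abcc3, Abcc6 and Abcc1 by -3.55, -5.75 and 3.71. Gusb, the glucuronidase that removes glucuronic acid again, had 1.24 ± 0.22 (SE, adjusted p = 0.00108).

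L-con, the tumor-free liver of a tumor-bearing mouse, was 1 library with no replicate, and its comparison with con has no test. Of the 48 members tested in tissue it lay below both con libraries for 27, above both for 9 and between them for 10, and 2 (Sult4a1 and Sult6b1) had no count in con or L-con. Of all 17187 genes, 32.1% lay below both con libraries and 36% above. Gst genes accounted for 17 of the 27 (17 of 21 Gst genes, median log2 difference -0.36), whereas 5 of 17 Ugt genes lay below and 5 above (median -0.00). Alb itself lay below both con libraries, and per 1000 Alb counts the Gst sum of L-con was 68.9, between the 66.2 and 71.9 of con, and the Ugt sum 57.8, above the 37.3 and 49.7 of con. On the log2(CPM + 1) scale Gsta2 had the most negative difference, at 24.1 CPM in L-con against 73.2 and 65.4 in con (log2 difference -1.48), and Sult5a1 the most positive, at 18.5 against 7.26 and 11.4 (0.91). Sult1a1 stood at 265 CPM against 665 and 396, and Gstp1 at 1839.6 against 1598 and 1555. Gsta2 and Gstp1 thus differed from con in opposite directions within the Gst class.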

How the data were processed

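Total RNA was sequenced from 14 tissue and 6 sorted-cell libraries. Per the labels' processing notes, the authors used CASAVA, HISAT2 2.0.5 and featureCounts 1.5.0-p3 with GRCm38 (mm10), and deposited raw read counts per gene. The strand setting is not given in the sources used here. The members and lists were chosen with earlier results of these data known. Ht libraries 1 and 3 were summed because the study's methods state that they were made identical, although a chi-square test of their counts gave 27.6 per degree of freedom, against 26.7 and 12.1 for the other Ht pairs. Counts were scaled by TMM, genes with low counts were removed with filterByExpr, and edgeR 4.0.16 (R 4.3.3) fitted 7 tissue groups, the 6 sorted libraries, or all 19 columns in 9 groups. The quasi-likelihood test was used with Benjamini-Hochberg adjustment over all genes tested, and a call took an adjusted p of at most 0.05 with a log2 change of 1 or more in size, after the study's thresholds. Each SE of a log2 fold change was derived as the size of that change divided by the square root of the test's F statistic. For values relative to Alb, the Alb count replaced the library size. DESeq2 1.42.0 was an alternative, as were total-count scaling, other filters, a hepatocyte list in place of Alb, and leaving out single libraries. Whether replicate numbers marked pairs was checked from correlated deviations, and they share only a number in the labels (r of 0.71 for Mt1 with Mt2, 0.579 for the Mt mean with Lt, -0.384 for the Mt mean with Ht and -0.0953 for Ht with con). Methods were tested on simulated data. Nothing states that the libraries of a sorted group came from separate mice, so p-values there measure the spread between samples, which may be technical. Named were the 5 members of each class with the highest mean in con, members called higher in tissue, those called between the sorted populations or at a mean of 10 CPM or more in them, and up to 5 genes per list by mean level; Ugt1a1, Ugt1a9, Gsta1, Gstm3, Gsta2, Sult1e1, Ugt3a2 in sorted cells, Papss1, Papss2, Hpgds, Mgst2, Slc7a11 and Abcc1 were named after their values were seen. Intervals and floors cover counting error only. Exon overlap and shared words came from GENCODE M21, and promoters from RefSeq, which held 56 of the 64 members; 60 lie at the same position in GENCODE M21 as in the count tables. The value of 1 listed gene is not reported here.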

Additional observations from a re-analysis of the deposited data

How the results depend on the processing

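Of the results on numbers of members called, 261 of 286 alternative values stayed within 1.5 times the value reported. From con to Lt, 9 members were called lower without a filter and 7 with only the groups compared in the fit, and from Lt to Mt 12 without a filter and 0 to 17 when 1 library was left out, 17 without the first Mt2 library. The members called lower from Mt to Ht ranged from 0 to 38 when 1 library was left out, 0 without either Ht sample. From con to Ht, 0 of 39 were called higher with at least 10 counts in every library (23.7% of all genes), and the number also moved with 1 library left out. Relative to Alb, 7 to 10 were called higher from con to Ht with 1 library left out, and the 1 called lower became 3 with Ht as 3 libraries, 2 with a replicate block and 5 with the hepatocyte list as reference. From Mt to Ht relative to Alb, 9 to 18 were called higher and 0 to 1 lower with 1 library left out, and 2 lower with Ht as 3 libraries or with the hepatocyte list. Relative to Alb, 0.282% of all genes were called lower from con to Ht with Ht as 3 libraries. The share was 0.262% with a replicate block and 0.536% with the hepatocyte list, against 0.186% in the main fit. From Mt to Ht it was 0.23% with Ht as 3 libraries and 0.297% with the list, against 0.151%. Against Mt2 tissue, at least 10 counts in every library left 12 members. Of these, 8 were called lower and 1 higher in F4/80+TAM and in CD11b+TAM alike. Of all genes passing that filter, 18.4% were called lower and 16.3% higher in F4/80+TAM, and 19.2% and 16.8% in CD11b+TAM. With 1 library left out, 1 to 2 were called higher in CD11b+TAM, and 2 to 4 lower relative to Alb.

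Among values of named genes, Gsto1 turned to 0.30 from con to Ht under total-count scaling, and from Mt to Ht to 0.00466 in DESeq2, 0.0332 without a filter and 0.49 with total counts. Relative to the hepatocyte list in place of Alb, Gsta3 turned to -0.43 and Ugt2b5 to -0.17 from con to Ht. Between the sorted populations, Sult1a1 ranged from -0.23 to 0.84 and Ugt1a7c from -0.16 to 0.24 with 1 library left out. The causes were not tested.

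A replicate block left 40 members called lower and 2 higher from con to Ht, 38 lower from Mt to Ht and 0 in either direction from con to Lt, also with the numbers of the 2 Lt libraries exchanged, an alternative added after the data were seen. In the fit without a block, 24.1% of all genes were called lower and 25.8% higher from con to Ht. From Mt to Ht 13.4% were called lower, and from con to Lt 0.256% lower and 12.4% higher. Shares of all genes under the block are not given here. With 1 library left out, a lone library was assumed to vary like the other groups. Groups of 2 limit the precision, and members below the floor of 3 counts were not measurable at this depth.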
